A study of Homo sapiens with 47 samples.

Results

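Circulating tumor cells (CTCs) that carried transcripts of dividing cells were compared with CTCs that carried almost none. The CTCs came from a mouse model of triple-negative breast cancer. Human MDA-MB-231-LM2 cells (LM2), a lung-metastatic derivative of a triple-negative line, carried GFP and were injected into the mammary fat pad of immunodeficient NSG mice, and all CTCs of the report share this origin. Blood was taken at the terminal stage and enriched by size, GFP-positive cells were picked one by one, and each was sequenced by a SMARTseq2 protocol without molecular identifiers. The series gave values for 43 single cells, 37 CTCs from 5 mice and 6 LM2 cells from culture.

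The 37 CTCs were ranked by a score, the mean log2(value + 1) of 10 genes (MKI67, TOP2A, CCNB1, CDK1, UBE2C, BIRC5, CENPF, TPX2, AURKA and PLK1), where the value is the normalised read count. The 12 CTCs with the highest scores are called cycling here, the 12 with the lowest non-cycling, and the other 13 lie between the classes, so that 24 of 43 cells were compared. The classes were selected on measured values, so the 10 genes are described without a test. Other genes were tested, but in the same libraries, and genes that move together with the 10 carry no independent evidence that the classes exist.

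A dividing cell copies its DNA in S phase, with enzymes that make nucleotides and a replisome that loads at origins, and then separates the copies in mitosis with a spindle, kinetochores and the kinases that steer them. Many of these genes are repressed in resting cells by the DREAM complex, which sits on short promoter elements called CHR, and are switched on by E2F factors for S phase and by MYBL2 and FOXM1 for mitosis. CTCs are cells shed from a tumor into the blood, alone or in clusters, and can stand at any point of this cycle.

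Promoters of 4 genes that carry the comparison are shown to let these elements be seen. CDK1 (the mitotic kinase) and PLK1 (a kinase of mitotic entry) are score genes, CDC20 (activator of the anaphase promoting complex) and ASF1B (a histone chaperone of S phase) are not. Each is the 250 bases before the RefSeq start of the gene (GRCh38.p14), 5′ to 3′ on the gene's strand. Where present, capitals mark matches to 3 kinds of motif on either strand. CHR letters are TTTGAA in its common form and, in a variant form of the same element, TTCGAA. The second kind is CCAAT, bound by NF-Y. E2F letters are TTTCGCGC, TTTGGCGC or TTTCCCGC. No E2F letters fall in the 4 stretches shown, and the E2F letters of CDK1 lie after its start. No marked motif overlaps another.
CDK1 (chr10:60778081-60778330, plus strand): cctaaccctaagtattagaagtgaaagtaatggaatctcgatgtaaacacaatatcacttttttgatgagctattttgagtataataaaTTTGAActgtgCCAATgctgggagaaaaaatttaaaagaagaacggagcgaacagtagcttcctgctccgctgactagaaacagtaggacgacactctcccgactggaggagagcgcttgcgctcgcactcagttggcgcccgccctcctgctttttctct
PLK1 (chr16:23678639-23678888, plus strand): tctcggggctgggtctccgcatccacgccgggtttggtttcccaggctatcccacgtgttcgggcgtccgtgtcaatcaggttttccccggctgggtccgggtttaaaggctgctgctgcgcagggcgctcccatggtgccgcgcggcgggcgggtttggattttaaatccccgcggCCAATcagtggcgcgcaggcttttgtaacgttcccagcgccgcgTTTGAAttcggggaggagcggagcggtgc
CDC20 (chr1:43358731-43358980, plus strand): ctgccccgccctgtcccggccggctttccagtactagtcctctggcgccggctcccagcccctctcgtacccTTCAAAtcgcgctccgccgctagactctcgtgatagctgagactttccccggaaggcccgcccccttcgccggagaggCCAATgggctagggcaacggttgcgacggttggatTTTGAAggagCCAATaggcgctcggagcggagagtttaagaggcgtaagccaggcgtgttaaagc
ASF1B (chr19:14136590-14136839, minus strand): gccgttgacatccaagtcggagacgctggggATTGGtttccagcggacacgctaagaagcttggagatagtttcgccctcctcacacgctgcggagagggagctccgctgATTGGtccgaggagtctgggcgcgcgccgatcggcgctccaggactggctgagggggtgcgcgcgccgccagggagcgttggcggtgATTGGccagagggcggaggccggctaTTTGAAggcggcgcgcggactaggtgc

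In PLK1 the CHR letters begin 29 bases before the start and the CCAAT letters 73 bases before it, and in ASF1B the CHR letters begin 27 bases before the start. Over windows of 250 bases before to 50 after the start, CHR letters were found in 5 of the 6 score genes and 5 of the 12 called genes (below) that the RefSeq table holds, against 16.6% of all 27305 promoters and 11% of the promoters of genes tested. CCAAT letters were found in 6 of 6 score genes and 10 of 12 called genes, against 35.7% of all promoters and 37.6% of those of genes tested. E2F letters were found in 1 of 6 and 1 of 12, against 2.79% and 5.22%. UBE2C, BIRC5, TPX2, AURKA, PBK and C19orf48P were not matched. A match of letters is a description and not a binding site.

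The score ran from 0.00 to 1.85 in the 12 non-cycling CTCs, with a median of 0.88, and from 6.76 to 8.84 in the 12 cycling CTCs, with a median of 7.91. Just outside the classes lay a CTC of mouse 5541 at 1.90 and a CTC of mouse 5545 at 6.74. The widest step in the ranking fell inside the middle cells, between 2.69 and 4.18, with 22 CTCs above it and 15 below. Of the 6 cultured cells, 5 scored from 8.51 to 10.15, and the cultured cell LM-3 scored 1.74.

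**Figure D1:**
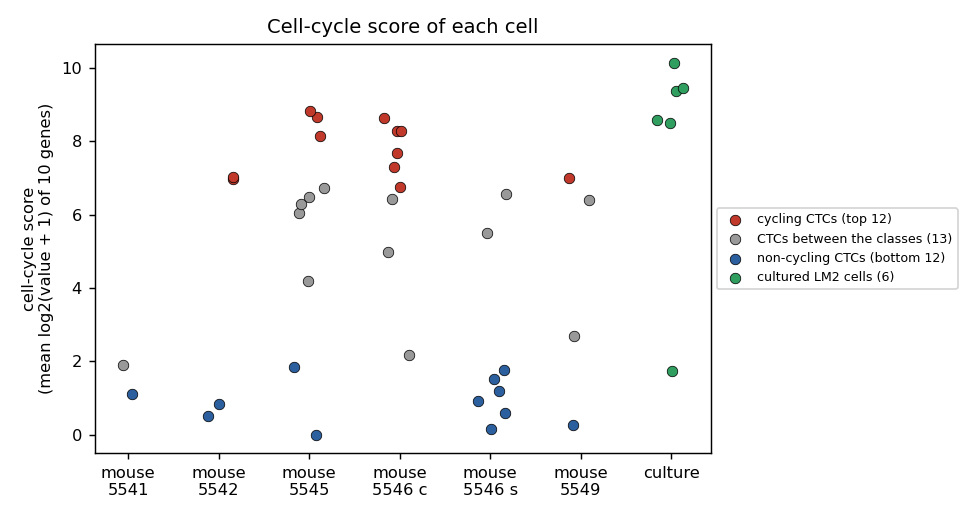
Score of each cell (vertical axis, mean log2(value + 1) of the 10 score genes) by mouse and library letter, with cultured cells at the right and 1 point per cell, shifted sideways at random. In mouse 5546 all 6 cycling CTCs were c libraries and all 6 non-cycling CTCs were s libraries.

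The 10 score genes were detected in all 12 cycling CTCs, and in the non-cycling CTCs a cell held between 0 and 4 of them. CDK1 was at 0 in all 12 non-cycling CTCs and ran from 30.9 to 848 normalised counts, with a median of 297, in the cycling CTCs. MKI67, the proliferation antigen, was detected in 3 non-cycling CTCs, at 5.31 at most, against 65.5 to 525 in cycling CTCs, with a median of 170. CDK1, MKI67, BIRC5 (survivin, of the chromosomal passenger complex) and CENPF (a kinetochore protein) were the score genes whose classes did not overlap.

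UBE2C, the ubiquitin carrier of the anaphase promoting complex, was the score gene found most often outside the cycling class. It was detected in 8 of 12 non-cycling CTCs, at a median of 9.71 and at most 151, and ran from 88.9 to 5365 in cycling CTCs. PLK1 varied most among the cycling CTCs, from 2.59 to 470 with a median of 98.2, and TPX2 (a spindle assembly factor) reached 130 in a non-cycling CTC. These values chose the classes and support nothing further.

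The classes were unevenly spread over mice. Mouse 5542 gave 2 cycling and 2 non-cycling CTCs, mouse 5545 gave 3 and 2, mouse 5546 gave 6 and 6, mouse 5549 gave 1 and 1, and mouse 5541 gave 1 non-cycling CTC only. The libraries of mouse 5546 carry a letter, c or s, that the labels do not explain. All 6 of its cycling CTCs were c and all 6 of its non-cycling CTCs were s, so in this mouse class and letter cannot be told apart. Of the 5546 cells, 1 c library fell below the widest step of the score and 2 s libraries above it.

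Cycling CTCs had more genes detected in 3 of 4 mice. They ranged from 6331 to 11010 genes with a median of 8368, and non-cycling CTCs from 2227 to 8008 with a median of 6585. The ranges overlapped. Averaged over the 4 mice that held both classes, the difference was 2285 genes ± 1770 (SD, n = 4 mice), with 3515, 3308 and 2625 more genes in mice 5545, 5546 and 5549 and a difference of -308 in mouse 5542. An exact sign-flip permutation test over mice (two-sided) gave p = 0.25, where 4 mice cannot go below 0.125. The lowest value, 2227 genes, was CTC 5545-6, a non-cycling CTC that also scored 0.00.

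**Figure D2:**
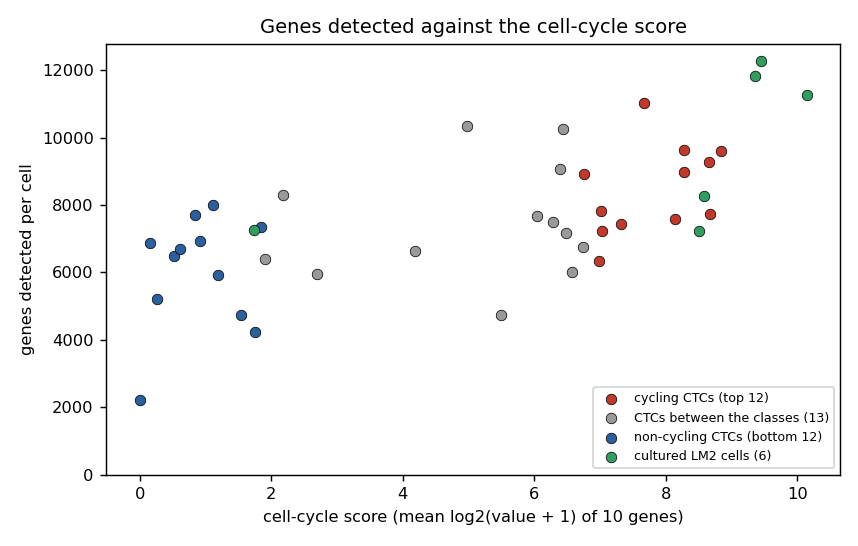
Genes detected per cell (vertical axis, out of genes found in at least 5 of the 43 cells) against the score (horizontal axis), 1 point per cell. Non-cycling CTCs lie between 2227 and 8008 genes and cycling CTCs between 6331 and 11010.

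Across the 37 CTCs the score and the genes detected had a Spearman rho of 0.57 and a Pearson r of 0.57, a description over cells that share mice and library preparation. Within mouse 5545 rho was 0.71 over 10 CTCs, and within mouse 5546 it was 0.57 over 17. Within the letters of mouse 5546 it was 0.07 over 9 c libraries and -0.67 over 8 s libraries. Reads on genes ran from 831683 to 2041333 in cycling and from 588141 to 1748979 in non-cycling CTCs. Their mean difference over mice was 332088 reads ± 495771 (SD, n = 4 mice; exact sign-flip permutation p = 0.25).

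Mitochondrial transcripts took 4.28% to 16.9% of reads in cycling CTCs, with a median of 6.39%, and 4.83% to 22.7% in non-cycling CTCs, with a median of 6.54%. The mean difference over mice was -0.73 percentage points ± 2.14 (SD, n = 4 mice; exact sign-flip permutation p = 0.625). The 13 protein genes of mitochondrial DNA had a median difference of 0.07 on the log2(value + 1) scale, from -0.75 (MT-ND6) to 0.36 (MT-ND3), and 0 of 13 passed the test described next.

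Which other genes differ between the classes was tested with limma on the mean log2(value + 1) of each class in each mouse, with mouse as a block. The score genes were left out, and 6860 genes with a mean of at least 8 normalised counts and detected in at least 30% of CTCs were tested. This filter used all CTCs without regard to class. A gene at 0 in every non-cycling CTC thus passed it through cycling and middle CTCs only. The call or non-overlap of such a gene gives no separate support for the classes. The fit held 4 mice, 12 cycling and 11 non-cycling CTCs, because mouse 5541 had no cycling CTC. All differences below are cycling minus non-cycling means over the 4 mice on this log2 scale. Where a class is mostly at 0 their size depends on the added 1.

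In all, 14 of 6860 genes (0.204%) were higher in cycling CTCs at an adjusted p under 0.05, and 0 genes (0%) were lower. All 14 were higher in each of the 4 mice, as were 1293 of the 6860 genes tested, while 65 genes were lower in each. At an unadjusted p under 0.05 limma gave 818 higher and 22 lower genes, and edgeR on the reads summed per mouse and class gave 1 higher gene, AURKB (0.0146%), and 0 (0%) lower, with 231 and 17 at an unadjusted p under 0.05. The median difference of all genes tested was 0.89, and 75.5% of them were positive, so a positive difference alone is the background of this comparison.

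Kinases and checkpoint proteins of mitosis were among the 14. AURKB (chr17:8204733-8210600), the kinase of the chromosomal passenger complex, ran from 50.7 to 734 normalised counts in cycling CTCs, with a median of 238, and was detected in 1 of 12 non-cycling CTCs, at 2.62. Every cycling CTC lay above every non-cycling one. The difference was 7.92 ± 1.32 (SE; limma, adjusted p = 0.0192), between 7.08 and 8.95 in the 4 mice.

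MAD2L1 (chr4:120055623-120066858), a protein of the spindle checkpoint, ran from 54.3 to 645 with a median of 294 in cycling CTCs. It was detected in 5 of 12 non-cycling CTCs, at 14.3 at most. Its difference was 7.34 ± 1.31 (limma, adjusted p = 0.0217). ZWINT, which links kinetochore complexes, differed by 6.91, CDC20 by 6.76, and PBK, a mitotic kinase, by 6.89. Of these, AURKB, MAD2L1 and PBK had classes that did not overlap, while ZWINT and CDC20 each had non-cycling CTCs (at up to 30.9 and 33.2) above the lowest cycling one.

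CDCA3, a trigger of mitotic entry, and CCNA2, cyclin A2 of S and G2 phase, were at 0 in all 12 non-cycling CTCs. Both passed the filter through the other CTCs. CDCA3 ran from 13.9 to 328 in cycling CTCs with a median of 115, and differed by 6.50 ± 1.30 (limma, adjusted p = 0.0333). CCNA2 ran from 13.4 to 249 with a median of 99.6, and differed by 6.06 ± 1.27 (limma, adjusted p = 0.0391). PTTG1, the securin that holds separase until anaphase, was detected in 9 of 12 non-cycling CTCs, up to 445, and in all 12 cycling CTCs, from 178 to 1838, and differed by 5.96.

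Of the 14, 3 were genes of DNA synthesis and chromatin assembly. TK1 (chr17:78174091-78187233), thymidine kinase, ran from 212 to 1077 in cycling CTCs with a median of 536, and was detected in 5 of 12 non-cycling CTCs, up to 317, so the classes overlapped. Its difference was 7.55 ± 1.30 (limma, adjusted p = 0.0192). RRM2, the small subunit of ribonucleotide reductase, differed by 6.83 and ASF1B by 6.40. ASF1B was at 0 in 10 of 12 non-cycling CTCs and at up to 101 in the other two.

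The microtubule genes STMN1 and TUBA1B were common in both classes. STMN1 (stathmin, which destabilises microtubules) ran from 1181 to 5147 in cycling CTCs with a median of 2539.8, and from 0 to 2917 in non-cycling CTCs with a median of 784. The classes overlapped, and the difference of 5.44 ± 1.12 (limma, adjusted p = 0.039) was 11.02 in mouse 5549, with 1 CTC of each class, and 1.61 in mouse 5545. TUBA1B, an alpha tubulin, had medians of 3289.9 and 659.9 and differed by 3.04. TUBA1B and PTTG1 have near-identical copies in the genome, and the alignment kept uniquely mapped reads only, so their values are uncertain. C19orf48P, annotated as a transcribed unitary pseudogene, was the remaining gene, with a difference of 6.11.

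**Figure D3:**
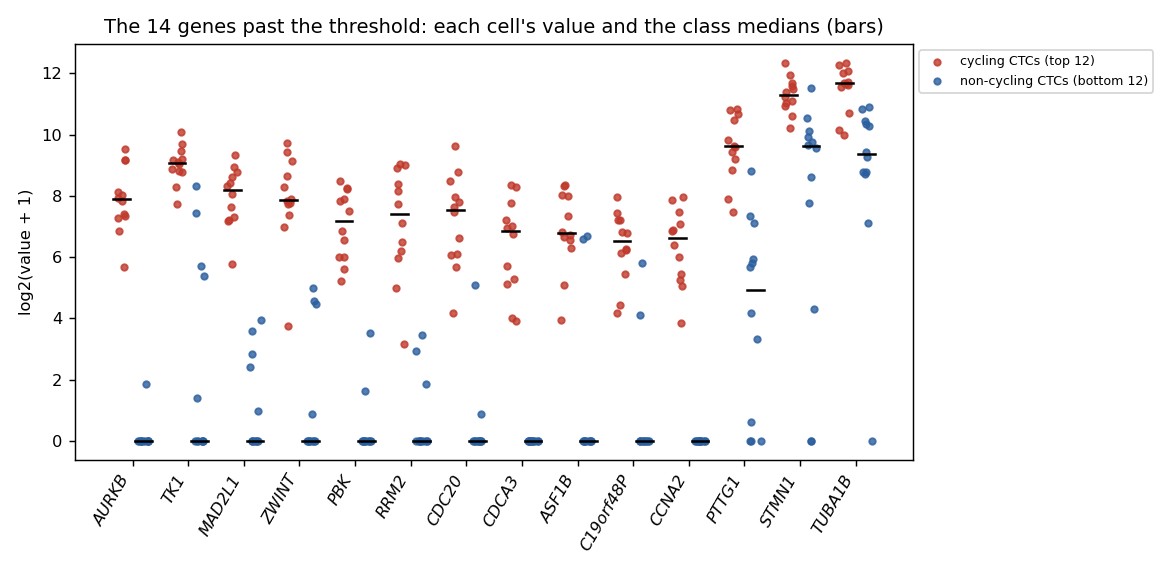
Each cell's log2(value + 1) (vertical axis) of the 14 genes past the threshold in the 12 cycling and 12 non-cycling CTCs, with class medians as bars. For CDCA3 and CCNA2 all 12 non-cycling CTCs are at 0, while STMN1 and TUBA1B overlap between the classes.

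The calls depended on the filter and on each of the 4 mice. Without the filter on low values 13576 genes were tested and 0 (0%) passed limma in either direction. At an unadjusted p under 0.05, 1054 were higher and 17 lower. The filter does not enter the differences of the 14 genes, which stayed the same. Without the s libraries of mouse 5546, which removes that mouse from the fit, 6 CTCs were compared with 5 in 3 mice. Then 6 genes (0.0875%) were higher and 0 (0%) lower, of which 3 (AURKB, TK1 and STMN1) belong to the 14. The 14 differed by 3.19 to 8.43 there. As all 14 were positive in each mouse, leaving out a mouse could not turn their sign. Leaving out mouse 5542, 5545 or 5549 kept 8, 7 and 8 of the 14 past the threshold, where all 14 again had to stay positive. Dividing all CTCs at the widest step of the score, with mouse and letter as block, compared 22 with 13 CTCs within 5 blocks. It placed c and s libraries on both sides. The 5 blocks came from 4 mice, because mouse 5546 entered as a c block and an s block, which are not independent. The low side of the c block was 1 CTC. The p-values of that fit therefore do not rest on mice alone. That fit, chosen after seeing the data, called 56 genes (0.816%) higher and 0 (0%) lower. All 14 were among the 56, with differences from 2.24 to 6.25, and CCNB2, CDKN3, ASPM, NUF2 and PCNA were among the others.

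A second reading of the same cells used ranks alone. In 21 of 6860 genes, 0.306%, all 12 cycling CTCs lay above all 12 non-cycling CTCs, and in 0 genes (0%) all lay below. The 21 were ASPM, AURKB, CCNA2, CDCA3, CDCA5, CEP295, CIT, CKS1B, DLGAP5, FOXM1, GTSE1, MAD2L1, NCAPD2, NCAPH, NDC80, NUSAP1, PBK, RAD51AP1, SGO1, SKA1 and SPAG5, and 5 of them were among the 14 above. Several of the 21 were at 0 in all 12 non-cycling CTCs, and the separation could be narrow. SKA1, SGO1 and NCAPH had lowest cycling values of 0.324, 0.399 and 0.7 against 0, near the smallest value a cell can hold. FOXM1, the transcription factor of mitotic genes, was at 0 in all 12 non-cycling CTCs and ran from 7.84 to 117 in cycling CTCs, with a difference of 5.03 (limma, adjusted p = 0.0691).

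CKS1B, a subunit of cyclin-dependent kinases, was the gene of this set most often detected in both classes. It ran from 102 to 900 in cycling CTCs and was detected in 8 of 12 non-cycling CTCs, at 38.9 at most. Without CTC 5545-6 the count was 22 genes (0.321%). Without the s libraries of mouse 5546, 12 cycling CTCs stood against 6 non-cycling ones and the count was 52 (0.758%). With all 37 CTCs divided at the widest step, 22 against 15, it was 4 genes (0.0583%): ASPM (a spindle pole protein), CDCA3, CKS1B and DLGAP5 (a spindle stabiliser).

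Over all genes tested 0.204% passed as higher and 75.5% were positive, the background of each list count below. Of 31 listed spindle genes 27 were tested and 2 passed (STMN1 and TUBA1B), all 27 were positive, and the median difference was 3.90, against 0.89 over all genes. Kinetochore and checkpoint genes had 2 of 26 past the threshold (MAD2L1 and ZWINT), 26 of 26 positive and a median of 3.91. Genes of mitotic exit and cytokinesis had 5 of 26 past it (AURKB, PBK, CDC20, CDCA3 and PTTG1), 25 positive and a median of 3.94. The exception was ESPL1, separase, at -2.32 (limma, adjusted p = 0.508), detected in 8 cycling and 6 non-cycling CTCs.

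Replication genes had 3 of 51 past the threshold (TK1, RRM2 and ASF1B), 50 of 51 positive and a median of 3.53. PCNA, the sliding clamp of the replisome, was detected in 6 of 12 non-cycling CTCs and reached 1490 there, above its cycling maximum of 864, and differed by 5.94 (limma, adjusted p = 0.0614). CDC45, a helicase subunit, was at 0 in all 12 non-cycling CTCs and detected in 11 cycling ones. Recombination and checkpoint genes had 0 of 13 past it with a median of 1.70, among them BRCA1, at 0 in all non-cycling CTCs and detected in 9 cycling CTCs.

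Cyclins, kinases and their partners had 1 of 12 past the threshold (CCNA2) with a median of 3.04, and the members differed. CCNB2, cyclin B2, was detected in 11 cycling CTCs and in 1 non-cycling CTC, at 0.58 (difference 5.82; limma, adjusted p = 0.0615). CCND1, cyclin D1 of the G1 phase, was detected in 12 and 11 CTCs at medians of 428 and 524 and differed by 0.42 (limma, adjusted p = 0.883). Its direction turned when the score was freed of its relation with genes detected, described below, to -2.10 (limma, adjusted p = 0.0146). The classes of that division hold in part other CTCs. The transcription factors of the cycle had 0 of 11 past it and a median of 1.81, with MYBL2 at 4.97, E2F1 at 4.52, RB1 at -0.04 and MYC at -1.60. Condensin, cohesin and chromatin genes had 0 of 25 past it, 25 positive and a median of 2.88.

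**Figure D4:**
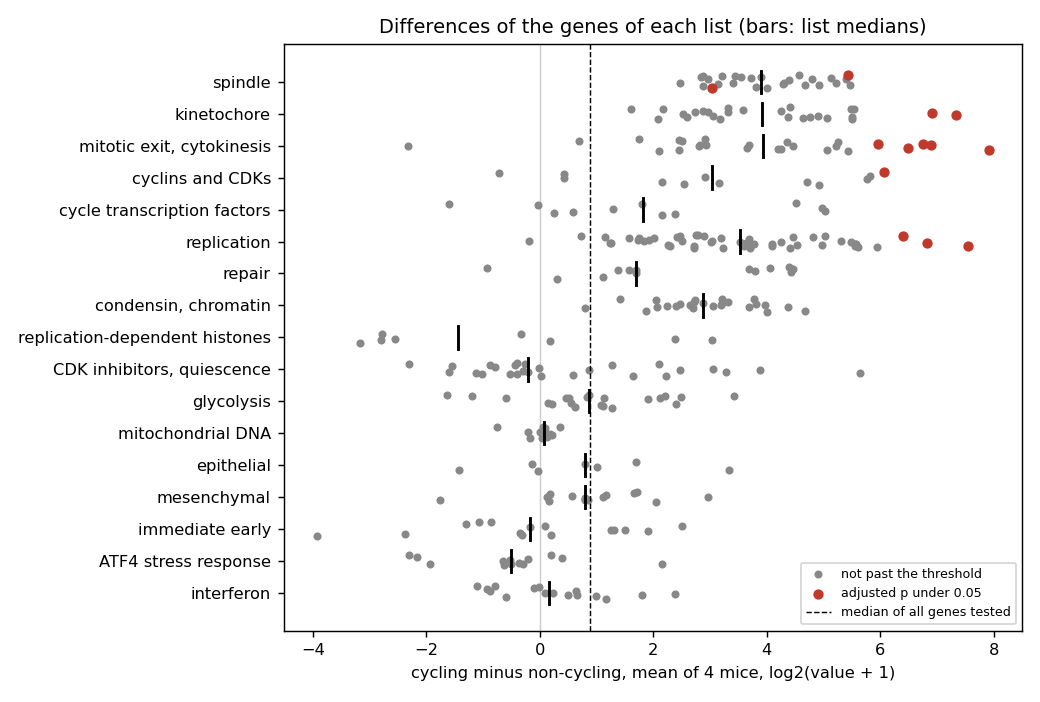
Difference of each tested gene (horizontal axis, cycling minus non-cycling, mean of 4 mice on the log2(value + 1) scale) by gene list, with list medians as bars and the median of all genes tested, 0.89, as a dashed line. The medians of the spindle, kinetochore, mitotic exit and replication lists lie between 3.53 and 3.94.

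The replication-dependent histone genes had a negative median, unlike the replication genes. The libraries were primed with oligo dT, so histone transcripts without a poly(A) tail were largely not measured. The values therefore do not give the histone output of S phase. Of 8 tested, 3 were positive, 0 passed, and the median was -1.44. H4C3, a histone H4 gene, was detected in 12 and 11 CTCs at medians of 1027 and 200 and differed by 3.04 (limma, adjusted p = 0.169), and it passed in the fit divided at the widest step, at 3.86 (limma, adjusted p = 0.000214). H2BC12 and H2AC6 had differences of -2.79 and -3.17, and in both the difference in mouse 5549 (-8.12 and -11.55) was the most negative of the 4 mice.

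Of the inhibitors and genes linked to quiescence 0 of 27 passed, 12 were positive and the median was -0.22. Over all genes tested 0.204% passed and 75.5% were positive, so 0 passing in this list is near the background. CDKN3, a phosphatase of cyclin-dependent kinases, was the highest at 5.65 (limma, adjusted p = 0.0788). CDKN1A, the p53-induced inhibitor p21, was detected in 12 cycling and 9 non-cycling CTCs at medians of 89.2 and 33.5 and differed by 2.48 (limma, adjusted p = 0.404). KLF4 and BTG1 differed by -0.25 and 0.02.

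The score is weighted to mitosis, and replication genes did not follow it in every cell. The mean log2(value + 1) of 90 mitosis genes (the spindle, kinetochore and exit lists, without the score genes) ran from 0.55 to 2.01 in non-cycling CTCs and from 4.24 to 6.27 in cycling CTCs, with no overlap. For the 62 replication genes it ran from 0.66 to 3.50 and from 3.23 to 5.73, and the classes overlapped. CTC 5546-s8, called non-cycling with a score of 1.20, had 38 of 62 replication genes detected and a mean of 3.50, above the 3.23 of the cycling CTC 5546-c2. A further non-cycling CTC, 5542-1, also had 38 of 62 detected.

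Between the classes, CTC 5549-2 combined a score of 2.69 with 50 of 62 replication genes and a mean of 4.27, close to the cycling median of 4.47. The cultured cell LM-3 combined a score of 1.74 with a replication mean of 6.16, inside the range of 4.76 to 7.32 of the other cultured cells. At the other end, 4 non-cycling CTCs and the middle CTC 5541-5 had 11 to 13 replication genes detected. The label non-cycling therefore states a low level of the 10 score genes and of mitosis genes, and replication transcripts were present in part of the class.

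**Figure D5:**
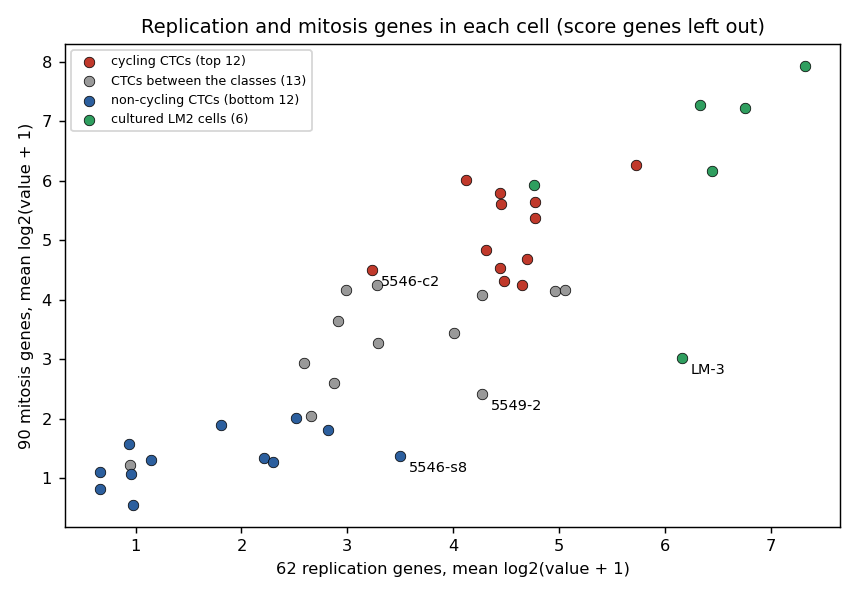
Mean log2(value + 1) of 90 mitosis genes (vertical axis) against that of 62 replication genes (horizontal axis), 1 point per cell, score genes left out. Cells 5546-s8, 5549-2 and LM-3 have mitosis means of 1.37, 2.41 and 3.02 beside replication means of 3.50, 4.27 and 6.16.

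No gene passed in the lower direction, and the 15 with the smallest p among those lower in all 4 mice did not pass. They were FTL, SAT1, LAT2, GATB, C15orf48, ASB3, RSRP1, BMP2K, OSGIN1, NBAS, SERTAD3, SNORD3A, ARHGAP12, KRT8 and FAM131A, with adjusted p from 0.178 to 0.483 (limma). FTL, the ferritin light chain, had medians of 1733 in cycling and 4676 in non-cycling CTCs and a difference of -1.57, of which mouse 5549 gave -3.58. SAT1, a polyamine acetyltransferase, had medians of 183 and 675 and a difference of -2.95, with -7.10 in mouse 5549.

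Because genes detected moved with the class, 2 further divisions were made. The first ranked CTCs by the score after its linear relation with genes detected was removed, which left 12 against 9 CTCs in 3 mice and moved the median of all genes to -0.25. Of its 12 high and 12 low CTCs, 8 and 9 kept their main class. Its low class took in the middle CTC 5546-c6, with 10331 genes, a score of 4.97 and all 10 score genes detected. It is therefore not a comparison of cycling with non-cycling CTCs as defined above. This division called 48 genes (0.7%) higher, 37 of them in the cell-cycle lists, and 28 (0.408%) lower. Those lists hold 191 of the 6860 genes tested. The ranking itself came from cell-cycle genes, so the share of list genes among calls is no independent evidence. The second, chosen after seeing the data, kept CTCs with 6331 to 8008 genes, 5 against 6 in 3 mice, with a median of -0.09. There mouse 5546 gave CTC 5546-c2 against s libraries only, so class and letter still cannot be told apart in it. Mouse 5545 gave CTC 5545-3 as its only non-cycling CTC. It called 22 genes (0.321%) higher, 17 of them in the cell-cycle lists, and 9 (0.131%) lower.

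A set of 9 genes, CDCA3, CDC20, STMN1, MAD2L1, PTTG1, TK1, PBK, RRM2 and AURKB, was called higher in the main fit, in both of these and in the fit at the widest step. These fits share cells. Another 7 genes were called lower in both further divisions: CCN1 (a secreted matricellular protein), CERCAM, CST3 (cystatin C), GSN (gelsolin, an actin-severing protein), KLHDC2, PRSS23 and SAT1. They are named after their values were seen. CCN1 differed by -3.48 and -4.04 there and by -0.32 in the main fit (limma, adjusted p = 0.942), and KLHDC2, GSN and PRSS23 had positive differences in the main fit. Neither further division held mouse 5549, and the main fit without that mouse gave -1.48, -0.85 and -0.06 for KLHDC2, GSN and PRSS23 (limma, adjusted p from 0.725 to 0.983).

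Lists outside the cell cycle had medians at or under that of all genes. With 0.204% of all genes past the threshold, 0 in a list of such size is no result about its members. Glycolysis genes had 0 of 21 past the threshold and a median of 0.87, with LDHA at 2.20 (limma, adjusted p = 0.129) and GAPDH at 0.52. Mesenchymal genes had 0 of 15 and a median of 0.80, with VIM, vimentin, at 0.17 and medians of 8653 and 8977. Epithelial genes had 0 of 7 and a median of 0.79, with DSP, desmoplakin, detected in 10 cycling and 2 non-cycling CTCs (difference 3.33; limma, adjusted p = 0.161) and KRT8, a keratin, at -1.42. Of the 7, 4 were positive, and the epithelial median was -1.23 with the score freed of genes detected and -1.47 in the shared range, where KRT19 was called lower at -4.90 (limma, adjusted p = 0.0293). Interferon-stimulated genes had 0 of 16 and a median of 0.16.

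Stress genes had negative medians and no member past the threshold, which is near the 0.204% over all genes. The ATF4 and DDIT3 list had 0 of 13 past the threshold, 3 positive and a median of -0.51, with DDIT3 at -2.16. Immediate early genes had 0 of 15 and a median of -0.17. EGR1, a growth-induced transcription factor, had the most negative difference of all genes tested, -3.93 (limma, adjusted p = 0.377). It was detected in 10 CTCs of each class, reached 8982 in a non-cycling CTC, and differed by -13.13 in mouse 5549 but by 1.75 in mouse 5545.

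Surface markers considered for CTC capture were measured in both classes. EGFR was detected in 12 cycling and 9 non-cycling CTCs and differed by 0.57 (limma, adjusted p = 0.887), S100A16 in 12 and 11 with -0.37, CAVIN1 in 12 and 11 with 2.17, AHNAK2 in 10 and 9 with -0.12, ODR4 in 9 and 7 with 0.02 and TRIML2 in 11 and 8 with -2.37. CAVIN1 and TRIML2 took these values from the single pair of CTCs in mouse 5549 (8.24 and -10.47), and without that mouse they differed by 0.14 and 0.33. EPCAM, the epithelial antigen of many capture methods, was detected in 6 cycling and 1 non-cycling CTCs, and ERBB2 in 6 and 4. EPCAM and ERBB2 were too low to be tested.

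Transcripts assigned to blood-cell marker genes were found in both classes. The blood was that of mice, and reads were aligned to the human genome only. Whether these reads are of human or mouse origin was not tested, and a marker at 0 need not be absent from the blood. The summed erythroid markers had medians of 806 in cycling CTCs (0 to 4751) and 1948 in non-cycling CTCs (0.587 to 15571), and 0 in all 6 cultured cells. Of the 9 erythroid markers in the file, 7 were detected in the 24 CTCs, 4 were tested, 0 passed, and all 4 were negative, with HBB at -1.01 and ALAS2 at -2.50, while SLC4A1 and HEMGN were at 0. The highest sum was in CTC 5549-6, the only non-cycling CTC of mouse 5549, which also had the fewest reads of its class, 588141. S100A9 and TYROBP, the tested neutrophil and leukocyte genes, differed by -1.43 and -1.73, MPO, CAMP and NKG7 were at 0, and PTPRC was detected in 3 cycling and 5 non-cycling CTCs. CD68, LYZ and LTF were detected more often in cycling CTCs, in 10, 4 and 6 of them against 5, 1 and 3 non-cycling CTCs.

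Summed neutrophil markers ran from 0 to 377 in cycling and from 0 to 573 in non-cycling CTCs, with 5 of 7 detected, leukocyte markers from 0.54 to 66.2 and from 0 to 487, with 7 of 9, and platelet markers from 0 to 77.3 and from 0 to 4.78, with 7 of 7. The part of blood transcripts in the differences between classes was not tested.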

How the data were processed

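The deposited table holds a signal per gene and cell, read counts that the authors divided by DESeq2 1.42.1 size factors after STAR 2.7.10a alignment to GRCh38 with GENCODE 38 genes, unstranded and uniquely mapped, for 25739 genes. Of 47 labelled samples, 4 have no column and were not analysed here. Whole reads were recovered from the smallest step of each cell, 100% of values within 0.001, and gave the depth (469614 to 2041333 reads per CTC). Reads lack molecular identifiers, so amplification can be part of each value. The paper's aligner settings include exact deduplication (soloUMIdedup Exact), and whether the deposited counts passed through it is not stated. No pair of the 43 libraries was identical, and cells of 1 mouse are not independent, so tests ran over mice. The fit at the widest step was an exception, as it held the c and s libraries of mouse 5546 as separate blocks.

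Symbols came from a gene name table (25684 IDs matched), coordinates from GENCODE 44. Tests used limma 3.58.1 (R 4.3.3) on class means per mouse of log2(value + 1), Benjamini-Hochberg adjusted over 6860 genes. edgeR 4.0.16 (quasi-likelihood test) on recovered reads, summed per mouse and class, called 1 gene. Scripts were tested on simulated data. Genes named are the score genes, list members past the threshold, the 15 leading genes in each direction with 1 sign in all mice (filled by smallest p), surface markers and blood markers. Members and lists were chosen with earlier results of these data known. Alternatives changed the pseudocount, filter, scaling, depth, block, class size and samples.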

Additional observations from a re-analysis of the deposited data

Results flagged for a closer look

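Each of 24 combinations of a group of 4 to 10 cells with a measure was examined for a cell far from the others, and chance marks about 1 in 20 such groups. CTC 5545-6 had 2227 genes detected, against 6623 to 9602 in the other 9 CTCs of mouse 5545. The cultured cell LM-3 had a score of 1.74, against 8.51 to 10.15 in the other 5 cultured cells.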

How the results depend on the processing

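The 14 genes called higher remained positive under all 19 alternatives, and the number past the threshold varied. Where a mouse was only left out the sign could not turn, as all 14 were positive in each mouse. Leaving out the s libraries and leaving out mouse 5546 are the same fit, listed under both names. It was 28 with a pseudocount of 0.1, 4 with 8, 0 without the filter on the mean (13576 genes tested), 60 on values scaled to equal library totals, 1 by edgeR, 63 without the mouse as replicate block, 236 when mice were weighted by their number of CTCs, 34 with 15 CTCs per class, 48 with the score freed of genes detected, and 6 without the s libraries. Leaving out mouse 5542, 5545, 5546 and 5549 gave 11, 13, 6 and 11, of which 8, 7, 3 and 8 were among the 14, and 0 or 1 lower (SQSTM1, without mouse 5545). Added after seeing the data, the division at the widest step gave 56, and the shared range of genes detected gave 22. Genes called lower were 1 under weighting (WFS1), 28 with the score freed of genes detected and 9 in the shared range. The mitochondrial difference of -0.73 became 0.00296 with the 13 protein genes and ranged from -1.64 to 0.0559 when each mouse was left out, above 0 without mouse 5549. Over 36 named genes, 684 values under alternatives gave 91 lost calls, 10 gained calls, 0 called reversals and 20 sign changes without a call. Only the 14 called genes could lose a call. The 91 lost calls are therefore a share of 14 genes under 19 alternatives and not of the 684 values. These counts include the repeated fit under both of its names. The causes were not tested.

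With 4 mice, 1 pair of CTCs in mouse 5549 and 6 of each class in mouse 5546, the means differ in precision, and the smallest sign-flip p is 0.125. Transcripts at 0 in a cell were not detectable at this depth and need not be absent.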
